A study of Mus musculus with 8 samples.

Results

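Potassium channel genes outside the Kv1 family were taken as every gene of the deposited table whose symbol begins with Kcn, leaving out symbols that begin with Kcna and the inward rectifier Kcnj13. The rule used no measured value, though it was chosen with earlier results of these data known. It gave 82 of 21959 genes. They were grouped by the letter that follows Kcn, into 19 subfamilies when Kcnip, Kcnma, Kcnmb and Kcnrg are kept apart. Of the 82 genes, 68 encode the pore-forming subunit of a channel and 14 encode auxiliary proteins (Kcne, Kcnip, Kcnmb and Kcnrg).

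The study asked what isoliensinine, a plant alkaloid, does to sleep in mice, and polyadenylated RNA was sequenced in 8 libraries. The 4 libraries named Model were labelled with PCPA (para-chlorophenylalanine, which depletes brain serotonin by blocking tryptophan hydroxylase), and the 4 libraries named IsoL with isoliensinine. All 8 carry the genotype label WT and the tissue label brain, while the series' design text names female ICR mice that were dosed over 7 days and a hypothalamus taken out after pentobarbital. The listed isoliensinine doses are 12.5, 25 and 50 mg/kg. The labels do not give the dose that was sequenced, the age of the mice, or whether IsoL mice also received PCPA. Nor do they say that each library is a different mouse, so p-values measure only how these libraries scatter, and that scatter may be technical. Groups without treatment or with alprazolam were not analysed here, and each direction below is IsoL relative to Model.

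Summed gene counts were 14262836 to 15886850 in Model and 15731923 to 21620466 in IsoL. Model 2 stood apart from the other libraries: chi-square per degree of freedom over genes was 11.4 to 15.9 when Model 2 was compared with another library, and 2.58 to 10.1 for pairs without it. Of 12 hypothalamic marker genes 11 were tested, and their summed level was 183 to 215 CPM (counts relative to a common library total) in Model and 71.8 to 148 in IsoL. 4 Y-linked genes summed to 301 to 354 CPM in every library, which goes against the stated sex. The defining granule cell marker of the cerebellum, Gabra6, averaged 0.033 CPM in Model and 0.0383 in IsoL, below the level of 3 counts, which was 0.138 to 0.21 CPM by library. The whole cerebellum list of 6 genes, 4 of them tested, summed to 424 to 481 CPM in Model and 383 to 457 in IsoL, most of it from Zic1 (means 228 and 230 CPM) and Calb1 (230 and 179 CPM).

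Potassium channels let K+ leave the cell and so set the resting potential, end the action potential and space one spike from the next. Voltage-gated families open on depolarisation (Kv2 to Kv4 from Kcnb, Kcnc and Kcnd, Kv7 from Kcnq, and the Kcnh channels), 2-pore channels (Kcnk) carry leak current, inward rectifiers (Kcnj) hold the membrane near rest, and the Kcnma, Kcnn and Kcnt channels are gated by intracellular calcium or sodium. Subunits of the Kcnf, Kcng, Kcns and Kcnv groups form no working channel alone and join Kv2 subunits. In neurons and glia these families decide how fast a cell can fire and how extracellular potassium is cleared.

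All pore-forming subunits carry the selectivity filter, a 5-residue signature. It was taken here as Thr or Ser, then Val, Ile, Leu or Thr, then Gly, then Tyr, Phe or Leu, then Gly. In GENCODE M21 coding sequences (mouse build GRCm38), a search for these 5 codons (15 bases) in the longest coding transcript found the signature in 68 of 68 pore-forming members and in 0 of 14 auxiliary members. It occurred once in 54 of the pore-forming genes and at 2 places in all 14 Kcnk genes, each of which encodes a subunit with a pair of pore loops. Shown are 60 coding bases around the filter of Kcnc2, a voltage-gated subunit with a single pore loop, and of Kcnk3 and Kcnk9, the pair that forms TASK leak channels; Kcnc2 and Kcnk3 are among the genes that were lower in all IsoL libraries. Capitals mark the 15 bases of the signature, and bases are counted from the A of the start codon.
Kcnc2, coding bases 1297 to 1356: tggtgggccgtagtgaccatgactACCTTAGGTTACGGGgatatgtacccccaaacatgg
Kcnk3 first pore, coding bases 253 to 312: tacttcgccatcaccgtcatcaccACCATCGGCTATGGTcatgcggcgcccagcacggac
Kcnk9 first pore, coding bases 253 to 312: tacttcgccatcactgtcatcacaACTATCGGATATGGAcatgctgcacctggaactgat
Kcnk3 second pore, coding bases 571 to 630: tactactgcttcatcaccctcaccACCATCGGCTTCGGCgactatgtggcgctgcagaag
Kcnk9 second pore, coding bases 571 to 630: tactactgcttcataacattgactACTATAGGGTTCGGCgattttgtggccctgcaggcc
The first pores of Kcnk3 and Kcnk9 share 48 of 60 bases (80%). Over whole transcripts the longest run of identical bases was 20 for Kcnk3 with Kcnk9 and 29 for Kcnc1 with Kcnc2.

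No potassium channel gene of the group changed between IsoL and Model at an adjusted p under 0.05 in edgeR's quasi-likelihood test, fitted on all 14536 genes with enough counts. Of the 82 members 70 were tested, 37 with a mean above and 33 below Model, and 0 passed, against 40 of all genes (0.275%). At an unadjusted edgeR p under 0.05 there were 12 of 70 members (17.1%), 5 higher and 7 lower in IsoL, where 13.2% of all genes met that level. DESeq2 called 5 of the 71 members it tested, among them Kcnc2, Kcne2, Kcnf1 and Kcnk3 (7.04%, against 2.1% of all genes). With limma voom 4 of 70 were called, among them Kcnf1, Kcnj16 and Kcnk3 (5.71%, against 1.64% of all genes). Without Model 2, edgeR called 4 of 71 members, Kcnf1, Kcnj16 and Kcnk3 among them (5.63%, against 0.998% of all genes). With any other single library left out, edgeR called 0 members and 6 to 21 of all genes.

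The log2 fold changes of the 70 members ran from -0.64 for Kcnh4 to 0.65 for Kcng1, with a median of 0.01 beside -0.001 for all genes. The median size of the change, without its sign, was 0.12 for members and 0.09 for all genes. For 45 of the 70 members the 95% interval lay within 0.5 on the log2 scale on both sides of 0 (64.3%), as it did for 10857 of the 14536 tested genes (74.7%). Of the 70, 5 had all 4 IsoL libraries below all 4 Model libraries (7.14%, against 4.42% of all genes): Kcnc2, Kcnd2, Kcnf1, Kcnj5 and Kcnk3. In 4 others, among them Kcng1, Kcnj16 and Kcnt1, all IsoL libraries were above all Model libraries (5.71%, against 4.05% of all genes).

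**Figure D1:**
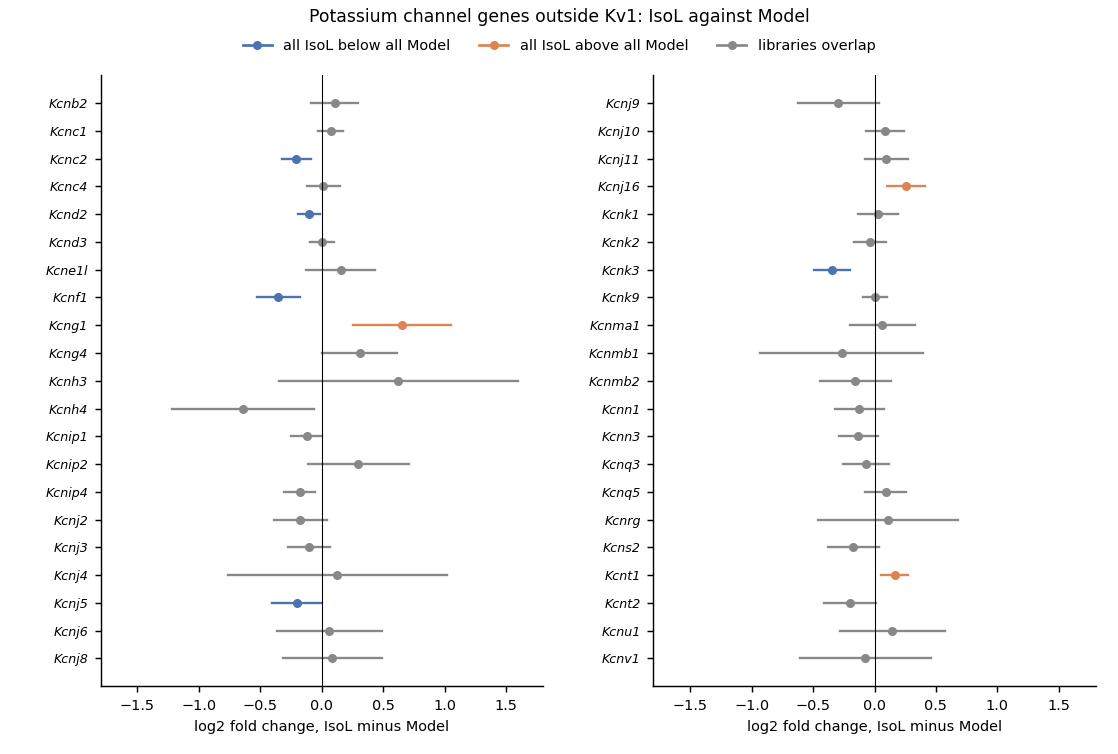
Log2 fold change, IsoL minus Model, of 42 tested members described in the text (points) with 95% intervals from edgeR (lines), in order of symbol; colour marks members whose 4 IsoL libraries all lie below or all above the 4 Model libraries. Most intervals cross 0. Those of Kcnk3, Kcnf1, Kcnc2, Kcnd2, Kcnj5, Kcnip4 and Kcnh4 lie wholly on the lower side. Those of Kcng1, Kcnj16, Kcnt1 and Kcng4 lie wholly on the higher side.

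Among leak channels, Kcnk3 (TASK-1, an acid-sensitive 2-pore channel that carries resting potassium current) was lower in every IsoL library. Kcnk3 (ENSMUSG00000049265) lies on the plus strand of chromosome 5 at 30745514 to 30782615 in the deposited table's coordinates (the sources used here do not give their build). Its level was 42.0, 38.0, 36.5 and 36.1 CPM in Model 1 to 4 and 31.4, 29.6, 28.7 and 30.3 CPM in IsoL 1 to 4. The lowest Model library was above the highest IsoL library. The log2 fold change of Kcnk3 was -0.35 (SE 0.07, edgeR adjusted p = 0.053), a mean of 38.2 ± 2.70 against 30.0 ± 1.15 CPM (SD, n = 4), a change of -21.4%. DESeq2 gave an adjusted p of 0.00262 and limma voom 0.0173, and edgeR without Model 2 gave 0.0287. Over all fits with 1 library left out, the edgeR adjusted p of Kcnk3 ran from 0.0287 to 0.152. In bulk tissue, a lower level can come from fewer cells of a type or from less RNA per cell, and these cannot be told apart here.

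Its closest relative Kcnk9 (TASK-3, which pairs with TASK-1) overlapped between the groups, at 197 to 210 CPM in Model and 194 to 213 in IsoL. Kcnk9 had a log2 fold change of 0.01 (95% interval -0.09 to 0.10, edgeR adjusted p = 0.967). Kcnk3 made up less of the summed FPKM (fragments scaled by gene length and library size) of the pair: 39.7, 36.7, 35.0 and 35.9% in Model 1 to 4 and 33.4, 30.8, 30.7 and 30.5% in IsoL 1 to 4. The share did not overlap between the groups; it was formed after the values of the genes were seen and carries no test. Kcnk2 (TREK-1, gated by membrane stretch and lipids) had a log2 fold change of -0.04 (95% interval -0.17 to 0.09, edgeR adjusted p = 0.827). Kcnk1 (TWIK-1, abundant in astrocytes) averaged 46.2 ± 4.90 CPM in Model and 47.1 ± 2.84 in IsoL (SD, n = 4). Of the 10 tested Kcnk genes 6 were above Model and 4 below, with a median log2 fold change of 0.02.

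Kv3 channels (Kcnc), whose fast closing lets neurons fire at high rates, included a gene that was lower in every IsoL library. Kcnc2 (Kv3.2; ENSMUSG00000035681, chromosome 10, 112107026 to 112302929) was at 334, 310, 299 and 298 CPM in Model and at 279, 283, 267 and 247 CPM in IsoL. Here all IsoL libraries were below all Model libraries. The log2 fold change of Kcnc2 was -0.21 (SE 0.05, edgeR adjusted p = 0.122), a change of -13.4%. Its adjusted p was 0.0254 in DESeq2, 0.0564 in limma voom and 0.0739 in edgeR without Model 2. Over all fits with 1 library left out, its edgeR adjusted p ran from 0.0739 to 0.268. Kcnc1 (Kv3.1) and Kcnc4 (Kv3.4) overlapped between the groups, at log2 fold changes of 0.07 (edgeR adjusted p = 0.545) and 0.01 (edgeR adjusted p = 0.946).

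Modulatory subunits that join Kv2 channels included the member with the largest positive fold among those tested in edgeR. Kcnf1 (Kv5.1; ENSMUSG00000051726, chromosome 12, 17222101 to 17226889) was at 46.2, 42.3, 48.5 and 54.2 CPM in Model and at 36.7, 41.2, 37.4 and 34.4 CPM in IsoL. The groups did not overlap, but Model 2 (42.3 CPM) and IsoL 2 (41.2 CPM) lay close together. For Kcnf1 the log2 fold change came to -0.35 (SE 0.08, edgeR adjusted p = 0.0864), a change of -21.7%. Its adjusted p was 0.0131 in DESeq2, 0.00832 in limma voom and 0.0195 in edgeR without Model 2. Over all fits with 1 library left out, its edgeR adjusted p ran from 0.0195 to 0.241. Kcng1 (Kv6.1) was at 3.99, 5.63, 3.90 and 5.30 CPM in Model and at 8.17, 9.51, 6.33 and 5.78 CPM in IsoL. Its groups did not overlap, and IsoL 4 was close to the higher Model libraries. For Kcng1 the log2 fold change came to 0.65 (SE 0.19, edgeR adjusted p = 0.151, and 0.0833 without Model 2). Kcng4 (Kv6.4) averaged 20.9 ± 4.53 CPM in Model and 25.9 ± 2.43 in IsoL (SD, n = 4), with log2 fold change 0.31 (edgeR adjusted p = 0.372).

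Kcns2 (Kv9.2) and Kcnv1 (Kv8.1) had log2 fold changes of -0.17 (edgeR adjusted p = 0.465) and -0.08 (edgeR adjusted p = 0.922). Of the 10 genes of these modulatory groups 9 were tested, 3 above and 6 below Model, with a median of -0.08. Among their partners, the Kv2 subunit Kcnb2 (Kv2.2, a delayed rectifier) had a log2 fold change of 0.10 (edgeR adjusted p = 0.656). It was at 32.3 CPM in Model 2, at 40.1 to 45.0 CPM in the other Model libraries and at 41.3 to 45.5 CPM in IsoL.

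**Figure D2:**
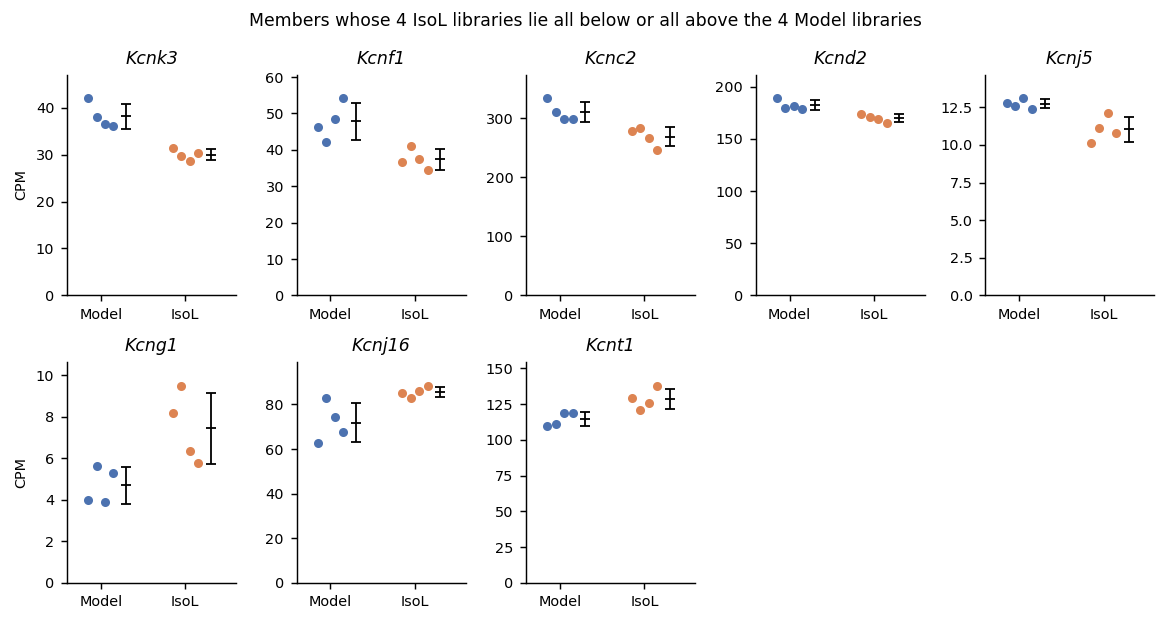
CPM in each library (points) with mean and SD over 4 libraries per group (bars), for 8 of the 9 members whose groups do not overlap; each axis starts at 0. The top row holds the 5 genes that are lower in all IsoL libraries and the bottom row 3 that are higher, with gaps as narrow as that of Kcnj16 (82.7 CPM in Model 2, 82.8 in IsoL 2).

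The Kv4 channels carry the A-type current that delays firing and are assembled with Kcnip calcium-binding subunits. Kcnd2 (Kv4.2) was at 189, 180, 182 and 179 CPM in Model and at 174, 171, 169 and 165 CPM in IsoL. All IsoL libraries were lower, by little: the log2 fold change of Kcnd2 was -0.10 (SE 0.04, edgeR adjusted p = 0.312), a change of -6.98%. Kcnd3 (Kv4.3) differed by 0.004 on that scale (95% interval -0.09 to 0.10, edgeR adjusted p = 0.979). The summed FPKM of the 3 Kcnd genes was 53.1 to 54.9 in Model and 51.6 to 52.1 in IsoL, without overlap. Of 19 such subfamily totals, 2 did not overlap (Kcnd and the single gene Kcnf1), and the totals carry no test. Kcnip4, the most abundant Kcnip gene, averaged 94.4 ± 7.17 CPM in Model and 83.4 ± 3.49 in IsoL (SD, n = 4). Its log2 fold change was -0.18 (SE 0.06, edgeR adjusted p = 0.215). The gene 5730480H06Rik overlaps it on the opposite strand. No strand marking is stated, so whether any reads are shared is not known. Kcnip1 had a change of -8.19% (edgeR adjusted p = 0.398).

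Of the inward rectifiers, Kcnj16 (Kir5.1, which joins Kir4.1 in glia) was the one with all IsoL libraries above all Model libraries. Kcnj16 (ENSMUSG00000051497, chromosome 11, 110858859 to 110918794) was at 62.5, 82.7, 74.4 and 67.6 CPM in Model and at 85.2, 82.8, 86.1 and 88.5 CPM in IsoL. Model 2 reached nearly the lowest IsoL library. The log2 fold change of Kcnj16 was 0.25 (SE 0.07, edgeR adjusted p = 0.153), a change of 19.3%. Its adjusted p was 0.0698 in DESeq2, 0.0129 in limma voom and 0.0187 in edgeR without Model 2. Over all fits with 1 library left out, the edgeR adjusted p of Kcnj16 ran from 0.0187 to 0.325. Its partner Kcnj10 (Kir4.1, the potassium-buffering channel of astrocytes and oligodendrocytes) averaged 702 ± 78.2 CPM in Model and 744 ± 33.3 in IsoL (SD, n = 4), with log2 fold change 0.09 (edgeR adjusted p = 0.638). The ratio of Kcnj16 to Kcnj10 in FPKM was 0.108 to 0.169 in Model and 0.148 to 0.169 in IsoL. All 6 astrocyte markers of the list also had means above Model, and 0 of 6 passed in edgeR. Their summed level was 1380 to 1440 CPM in Model and 1480 to 1630 in IsoL. Of these markers Aqp4 was called in DESeq2 (adjusted p = 0.0215) and not in limma voom (adjusted p = 0.0589). The others were called in neither. Model 2, the highest Model library for Kcnj16, had an astrocyte sum of 1390 CPM. The 6 oligodendrocyte markers, all with means above Model, summed to 13700 to 14100 CPM in Model and 14000 to 15400 in IsoL. All 6 microglia markers had means above Model too, with sums of 165 to 186 CPM in Model and 178 to 214 in IsoL. The part of these cell types in the Kcnj16 difference was not tested.

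GIRK channels (Kcnj3, Kcnj5, Kcnj6 and Kcnj9) open when inhibitory receptors, the serotonin 5-HT1A receptor among them, release G-protein subunits. Kcnj5 (GIRK4) was at 12.8, 12.6, 13.1 and 12.4 CPM in Model and at 10.1, 11.1, 12.1 and 10.8 CPM in IsoL. The groups did not overlap, though IsoL 3 (12.1 CPM) and Model 4 (12.4 CPM) lay close together. The log2 fold change of Kcnj5 was -0.20 (SE 0.09, edgeR adjusted p = 0.367). Kcnj9 (GIRK3) was at 102, 83.9, 129 and 117 CPM in Model and at 80.4, 75.3, 97.6 and 98.1 CPM in IsoL, which overlapped through Model 2. Its log2 fold change was -0.30 (SE 0.14, edgeR adjusted p = 0.43). Kcnj3 (GIRK1) differed by -0.11 (edgeR adjusted p = 0.60) and Kcnj6 (GIRK2) by 0.06 (edgeR adjusted p = 0.92). Kcnj6 was at 7.13 CPM in Model 2 and at 13.4 to 15.5 CPM in the other Model libraries, and without Model 2 its log2 fold change was -0.13. The summed FPKM of the 4 GIRK genes was 44.1 to 58.3 in Model and 43.4 to 46.6 in IsoL, with overlap.

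The pore genes of ATP-sensitive channels, which couple energy state to excitability, overlapped between the groups. Kcnj11 (Kir6.2, the neuronal form) averaged 27.4 ± 1.93 CPM in Model and 29.4 ± 2.61 in IsoL (SD, n = 4; edgeR adjusted p = 0.645). Kcnj8 (Kir6.1, the form of pericytes and vascular smooth muscle) averaged 3.97 ± 1.0 and 4.22 ± 0.378 CPM (SD, n = 4; edgeR adjusted p = 0.88). Kcnj9 and Kcnj10 are 11.9 kb apart on chromosome 1, with log2 fold changes of -0.30 and 0.09. Kcnj16 and Kcnj2 (Kir2.1, which sets the resting potential) are 38.2 kb apart on chromosome 11, with 0.25 and -0.17.

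Channels gated by intracellular ions gave small differences. Kcnt1 (Slack, the sodium-activated channel that follows bursts of spikes) was at 110, 111, 119 and 119 CPM in Model and at 129, 121, 126 and 138 CPM in IsoL. All IsoL libraries were higher, and the log2 fold change of Kcnt1 was 0.16 (SE 0.05, edgeR adjusted p = 0.206). Its relative Kcnt2 (Slick) differed by -0.20 with overlapping libraries (edgeR adjusted p = 0.412). Kcnma1 (BK, opened by calcium and voltage together) was at 237 CPM in Model 2, at 321 to 357 in the other Model libraries and at 317 to 344 in IsoL. Its log2 fold change was 0.06 (edgeR adjusted p = 0.854) and -0.05 without Model 2. The 3 tested BK beta subunits (Kcnmb1, Kcnmb2 and Kcnmb4) all had means below Model, with a median of -0.25, and 0 passed. Of these, Kcnmb2 differed by -0.16 (edgeR adjusted p = 0.661). Kcnmb1 lies inside Kcnip1 on the opposite strand, so its reads, 2.25 CPM on average beside 57.4 for Kcnip1, may be shared. Kcnu1, a BK relative known from sperm, was at 2.92 ± 0.649 and 3.22 ± 0.236 CPM (SD, n = 4).

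The 3 tested SK channel genes (Kcnn1 to Kcnn3), which produce the medium afterhyperpolarisation after calcium entry, all had means below Model. Kcnn3 (SK3) averaged 88.3 ± 10.5 CPM in Model and 80.5 ± 2.11 in IsoL (SD, n = 4), with log2 fold change -0.13 (edgeR adjusted p = 0.465, and 0.0518 without Model 2). Kcnn1 (SK1) differed by -0.12 (edgeR adjusted p = 0.604). The Kv7 genes, whose M-current restrains repetitive firing, included Kcnq3 and Kcnq5, whose libraries overlapped. Kcnq3 had a log2 fold change of -0.07 (95% interval -0.26 to 0.12) and Kcnq5 of 0.09 (-0.08 to 0.26). Among the 8 Kcnh genes 4 were above and 4 below Model. Kcnh4 had the lowest fold of all tested members at -0.64 (SE 0.27, edgeR adjusted p = 0.325), on 2.53 ± 0.746 CPM in Model and 1.62 ± 0.393 in IsoL (SD, n = 4). The remaining named genes were Kcne1l (also known as Kcne5, an auxiliary subunit of Kv7 channels) at 0.15 and Kcnrg (a regulator of channel tetramerisation) at 0.11, with edgeR adjusted p of 0.65 and 0.895.

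Compared per length, the channel genes spanned several orders of magnitude in these libraries. Kcnj10 was the highest, at a mean of 134 FPKM with a range of 113 to 144 over the 8 libraries, and no other member reached that range. Kcnc2 followed at 40.5 FPKM and Kcnd2 at 34.1, whose library ranges overlapped, then Kcnc1 at 29.7. Kcnip4 (24.5), Kcnj9 (22.8), Kcnj3 (21.7) and Kcnk1 (20.9) came below these, each with a library range that overlapped the next of the 4. In all, 20 members averaged at least 10 FPKM, 37 lay between 1 and 10, 14 between 0.1 and 1 and 11 below 0.1.

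**Figure D3:**
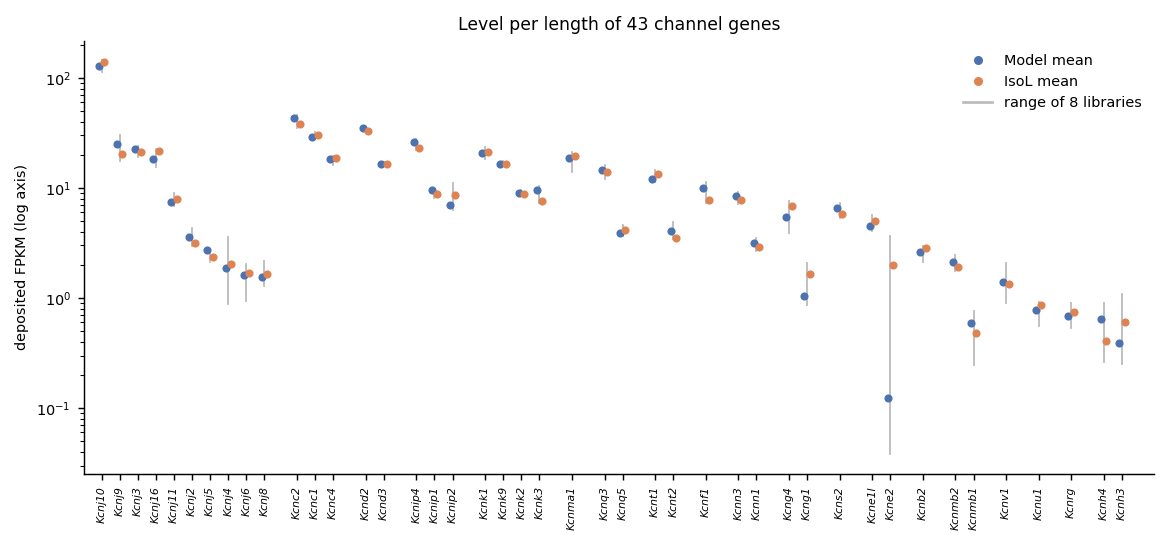
Deposited FPKM (log axis) of the members described in the text with a mean of at least 0.1, grouped by subfamily: group means (points) and the range over 8 libraries (lines). Kcnj10 stands at 113 to 144 FPKM, and the longest line belongs to Kcne2, at 0.0383 to 3.67 FPKM.

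The 12 members not tested by edgeR lacked enough counts in enough libraries to be kept by the filter. Kcne2 had 13 counts in the Model libraries together and 235 in IsoL, 106 and 109 of them in IsoL 1 and 2. Its total of 248 was above that of some tested members, such as Kcng3 (75). For the other 11, summed counts in Model and IsoL were 1 and 0 for Kcne1, 4 and 9 for Kcne3, 1 and 2 for Kcnj1, 4 and 9 for Kcnj15, and 16 and 8 for Kcnk15. They were 1 and 1 for Kcnk16, 2 and 2 for Kcnk18, 8 and 8 for Kcnk7, 2 and 2 for Kcnmb3, 24 and 34 for Kcnn4, and 7 and 12 for Kcnv2. Many of these are known from epithelia or other tissues (Kcnj1 from the kidney tubule, Kcnk16 from the pancreas, Kcnv2 from the retina), and a difference between groups was not detectable at this depth. Kcnn4, the calcium-activated channel of intermediate conductance, was the highest of these 11, at 0.41 CPM in Model and 0.503 in IsoL.

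Kcne2, an auxiliary subunit known from the choroid plexus and stomach, was read in part of the IsoL libraries. Its counts were 1, 4, 7 and 1 in Model 1 to 4 and 106, 109, 17 and 3 in IsoL 1 to 4, so IsoL 4 lay within the Model range. DESeq2 gave Kcne2 an adjusted p of 0.0443, and edgeR without the filter on low counts gave 0.355. Choroid plexus markers stood in the same order: the 6 genes of the list summed to 66.4 to 69.4 CPM in Model and to 755, 663, 112 and 56.8 CPM in IsoL 1 to 4. Of the 6, 5 were tested, 4 of them above Model. The defining gene Ttr averaged 2.32 CPM in Model and was at 609, 521, 44.8 and 0.458 CPM in IsoL 1 to 4. Most of the Model sum came from Prlr, which averaged 46.0 CPM in Model and 45.8 in IsoL. The part of choroid plexus RNA in the Kcne2 difference was not tested.

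A few members parted IsoL 1 and 2 from IsoL 3 and 4 more than IsoL from Model. They were picked after their values were seen. Kcnip2 (KChIP2, a Kv4 subunit) was at 40.6 and 38.4 CPM in IsoL 1 and 2, at 25.4 and 22.9 in IsoL 3 and 4, and at 24.8 to 27.0 in Model, with a log2 fold change between the groups of 0.30 (edgeR adjusted p = 0.53). Kcnh3 (a forebrain channel of the Elk group) was at 6.32 and 4.17 against 1.96 and 1.42 CPM, with 1.75 to 2.85 in Model. Kcnj4 (Kir2.3) was at 7.80 and 5.28 against 2.72 and 1.88 CPM, with 3.19 to 4.55 in Model, and Kcnv1 at 9.58 and 6.67 against 4.30 and 4.13 CPM, with 5.98 to 7.51 in Model. The cortex and hippocampus markers, 9 tested of 10, had a mean centred log2 level of 0.66 and 0.55 in IsoL 1 and 2, of -0.28 in IsoL 3 and in IsoL 4, and of -0.23 to -0.10 in Model. Their summed level was 364 to 436 CPM in Model and 390 to 441 in IsoL. Over the 70 tested members, 31 had both IsoL 1 and IsoL 2 above IsoL 3 and 4, and 12 had both below, or 44.3 and 17.1% of them. Over all 14536 tested genes, 21.9% had both above and 21.5% both below. The part of regional makeup in these values was not tested.

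**Figure D4:**
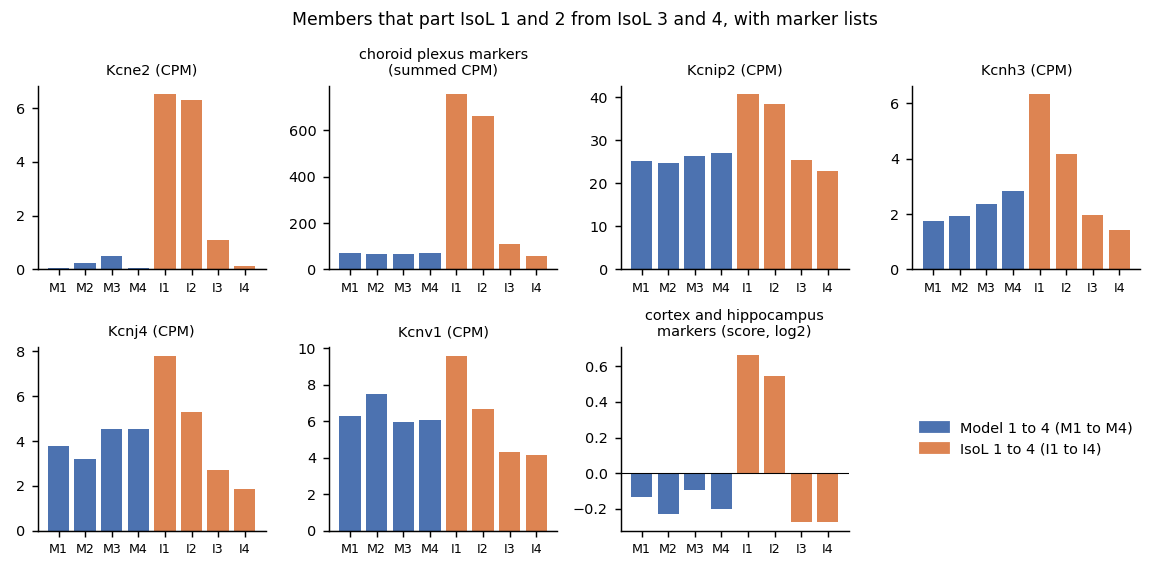
Levels in Model 1 to 4 (M1 to M4) and IsoL 1 to 4 (I1 to I4) of Kcne2, Kcnip2, Kcnh3, Kcnj4 and Kcnv1 in CPM, beside the summed CPM of choroid plexus markers and the mean centred log2 level of cortex and hippocampus markers. IsoL 1 and 2 are higher than IsoL 3 and 4 in each panel, and Kcne2 is at 6.51 and 6.32 CPM in IsoL 1 and 2 against 1.08 and 0.138 in IsoL 3 and 4.

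Partner genes outside the Kcn names were read from a list of 20, with Kv4, Kv2 and Kv7 partners, BK gamma subunits, sulfonylurea receptors, calmodulins and GIRK trafficking and gating proteins. Of these 19 were tested, 8 above and 11 below Model with a median log2 fold change of -0.01, and 0 passed in edgeR, DESeq2 or limma voom. In edgeR 2 were higher and 2 lower at an unadjusted p under 0.05. The smallest p belonged to Ank3 (ankyrin G, which anchors Kv7 channels at the axon initial segment), at 514 to 599 CPM in Model and 617 to 666 in IsoL, with log2 fold change 0.16 (edgeR adjusted p = 0.238). Akap5, a scaffold of Kv7 channels, differed by 0.31 (edgeR adjusted p = 0.276) and Rgs7, which speeds GIRK closing, by -0.13 (edgeR adjusted p = 0.285).

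Some regional markers moved with the groups beside all the results above. Of the 11 tested hypothalamic genes 9 were below Model, with a median log2 fold change of -0.66, and Pmch passed in edgeR. Of the 6 dorsal midbrain genes 5 were above Model, and Dmbx1 and Tfap2d passed. The dorsal midbrain sum overlapped, at 18.2 to 33.9 CPM in Model and 21.7 to 36.1 in IsoL. Thalamus markers summed to 1250 to 1380 CPM in Model and 1150 to 1430 in IsoL. Striatum markers summed to 87.8 to 103 CPM in Model and 87.2 to 90.8 in IsoL. Both lists overlapped between the groups, and 0 of their genes passed in edgeR. The 6 neuronal markers summed to 5020 to 5530 CPM in Model and 5180 to 5450 in IsoL. Whether the lower Kcnk3, Kcnf1 and Kcnc2 and the higher Kcnj16 follow this difference in regional markers was not tested.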

How the data were processed

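Polyadenylated RNA was sequenced in 8 mouse libraries, 4 per group as labelled. The submitters' processing notes name fastp 0.22.0, HISAT2 2.1.0 and HTSeq 0.9.1; the sources used here give neither the genome build nor the strand setting. Per the file headers, the table the authors deposited gives a read count for every gene in every library, with 51 of 21959 genes lacking a symbol. It also holds FPKM values made by the authors, which matched counts, gene length and summed counts (largest relative difference 1.11e-09), and gene length as another deposited column.

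Counts were tested in edgeR 4.0.16 (R 4.3.3) over all genes kept by filterByExpr (14536), with TMM scaling (factors 0.983 to 1.01), the robust quasi-likelihood F-test and Benjamini-Hochberg adjustment at 0.05 (biological coefficient of variation 9.06%). CPM are counts per TMM-scaled library size, and 3 counts correspond to 0.138 to 0.21 CPM, a floor for counting error only. Standard errors and 95% intervals come from the same fit. The procedure was tested on simulated data. FPKM served to compare genes with each other. No pair of libraries was a duplicate (smallest chi-square per degree of freedom 2.58).

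The members and gene lists were chosen with earlier results of these data known. Named were members called by edgeR, DESeq2 1.42.0 or limma 3.58.1 (voom with quality weights), the 12 with the smallest edgeR p, the smallest p of each subfamily, the 10 with the highest FPKM and a fixed set, 36 in all, and 33 of these appear by name (the rest is not reported here); untested members were named with their counts, and partner genes by their 3 smallest p. Kcnc4, Kcnd3, Kcnh3, Kcnip1, Kcnip2, Kcnj2, Kcnj4, Kcnk9, Kcnmb1 and Kcnt2 were added after their values were seen. Kcnk5, given below for an outlying library, and Kcng3, given below with its interval, were also outside the naming rule. Alternatives were DESeq2 size factors, no filter, a threshold of 0.1, a replicate block, each library left out, DESeq2 and limma voom. Coding sequences came from GENCODE M21. Proteins and promoters were not used here. Figures were drawn with matplotlib 3.10.9.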

Additional observations from a re-analysis of the deposited data

Results flagged for a closer look

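Of 134 combinations of 67 channel genes and 2 groups, 5 held a library far from the other 3 of its group, by a gap above Dixon's 95% critical value; chance gives such a library in about 1 in 20 groups of 4. Model 2 was that library in 2 of the 5. It was the highest Model library for Kcnj2 (23.5 CPM) and the lowest for Kcnip1 (56.2 CPM), where it lay toward the IsoL level. In Model 1, Kcnk5, an acid-sensitive 2-pore channel, was the lowest of its group (0.629 CPM). In IsoL 2, Kcnj6 was the highest (14.4 CPM), and in IsoL 3, Kcnk2 was the highest (47.4 CPM). Over the 70 tested members Model 2 was the lowest Model library in 25 and the highest in 21.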

How the results depend on the processing

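In edgeR, 0 of 70 members passed, and 12 did at an unadjusted p under 0.05. The count was 3 at an adjusted p under 0.1, 2 without the filter on low counts (Kcnk3 among them), 5 in DESeq2 and 4 in limma voom. With 1 library left out it was 4 without Model 2 and 0 in each other case. Over all genes the count went from 40 to 138 at an adjusted p under 0.1, 74 without the filter, 312 in DESeq2, 238 in limma voom and 6 to 146 with 1 library left out; it was 6 without Model 4 or IsoL 2 and 146 without Model 2. The cause of these shifts was not tested. To look for pairing, each gene's group mean was subtracted from its log2 CPM. These deviations correlated at 0.0199 to 0.0696 between same-numbered libraries, and those of Model 1 correlated most with those of IsoL 2 (0.143). No pairing by number was apparent, but correlations over all genes cannot exclude a weak one. A replicate block gave 17 genes and 0 members. The median fold of the tested members stayed within -0.02 to 0.04 on the log2 scale in the 13 alternatives run.

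Of 546 values of 42 tested genes under an alternative, 10 gained a call (Kcnc2, Kcnf1, Kcnj16 and Kcnk3), 20 changed sign in 8 genes and 516 did neither. Kcne2, which was not among the genes tested in edgeR, was called in DESeq2 (adjusted p = 0.0443) and not in edgeR without the filter (adjusted p = 0.355). With 1 library left out the log2 fold change ran from -0.13 to 0.19 for Kcnj6, -0.0241 to 0.0955 for Kcnk1, -0.053 to 0.131 for Kcnma1, -0.363 to 0.0843 for Kcnv1, -0.0372 to 0.0478 for Kcnc4, -0.0173 to 0.0292 for Kcnd3, -0.0176 to 0.0307 for Kcnk9 and -0.29 to 0.40 for Kcnj4. In limma voom it was -0.10 for Kcnj6, -0.0312 for Kcnma1, -0.0213 for Kcnd3 and -0.29 for Kcnj4, and with the replicate block -0.0023 for Kcnj4. The cause was not tested. The 95% interval of the log2 fold change ran from -1.06 to 1.02 for Kcng3, which had 2 to 17 counts by library, and from -0.76 to 1.02 for Kcnj4, which had 41 to 127.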
